A study of Mus musculus with 6 samples.

Results

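The 73 genes described here are V1R vomeronasal receptor genes numbered Vmn1r55 to Vmn1r185, measured in vomeronasal organs (VNOs) of wild-type and AP-2e null mice. They are the genes numbered within that range that had a probe set of their own, and they are 73 of 22180 genes tested. The rule uses names only, but it was set with earlier results of these data known. All 73 have a single such probe set, and RefSeq places all 73 on chromosome 7. The study compared 3 wild-type with 3 AP-2e null VNO samples at postnatal day 17, 1 whole-transcript array per sample, to find genes that differ between the genotypes. AP-2e is the transcription factor made from Tfap2e, and the labels say no more of the null allele. Samples of both genotypes were handled by 1 protocol. The sources used here give neither the strain and sex of the animals nor how many went into a sample.

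V1R genes encode G protein-coupled receptors of the apical sensory neurons of the VNO, a nasal organ for pheromones and other chemical signals between animals. Each apical neuron makes a single V1R out of the family, together with the G protein subunit Gnai2 and the channel Trpc2, while the basal neurons use V2R receptors and Gnao1. Mouse V1R genes fall into subfamilies by sequence, named with letters in the older V1r names, and relatives tend to lie next to each other on a chromosome. AP-2e is known as a factor of the basal neurons.

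Values are log2 signals, so a difference of 1 is a doubling, and every difference is AP-2e null minus wild-type. Tfap2e, the targeted gene, stood at 6.46, 6.76 and 6.92 in wild-type replicates 1 to 3 and at 5.97, 6.09 and 6.04 in AP-2e null replicates 1 to 3, lower in every null sample, though its difference of -0.68 (SE 0.13) did not pass over all genes (adjusted p = 0.431 in limma). Whether its probes fall inside what the null allele removes is unknown here. Upper quartiles of the arrays lay between 6.98 and 7.02. Markers of mature VNO neurons were present on all arrays, with Omp between 9.46 and 10.48 and Trpc2 between 6.75 and 7.08. Markers of tissue beside the sensory epithelium varied between arrays of the same genotype. Cyp2g1, an enzyme of nasal supporting cells, lay between 4.33 and 10.13 in wild-type and between 7.27 and 10.01 in AP-2e null samples, and the mean of the cartilage list reached 8.01 on AP-2e null replicate 2, where the remaining arrays had 5.43 to 5.82.

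The largest differences among the receptors lay in a run of neighbouring genes of the V1rg subfamily, and parts of the sequence before these genes are given here so that they can be set against the values that follow. Each is the 250 bases before the annotated start in RefSeq (GRCm38.p6), read 5′ to 3′ on the gene's own strand, with the letters TATAAA, on either strand, in capitals. Vmn1r73, Vmn1r84, Vmn1r82, Vmn1r78 and Vmn1r83 are 5 of the 6 V1rg genes with an unadjusted p under 0.05, and Vmn1r74 is a neighbour whose difference was 0.05. They were picked for display after values were seen. The regions are, in that order, chr7:11756007-11756256 (plus strand), chr7:12362765-12363014 (minus), chr7:12304555-12304804 (plus), chr7:12152214-12152463 (plus), chr7:12322129-12322378 (minus) and chr7:11846525-11846774 (plus).
Vmn1r73: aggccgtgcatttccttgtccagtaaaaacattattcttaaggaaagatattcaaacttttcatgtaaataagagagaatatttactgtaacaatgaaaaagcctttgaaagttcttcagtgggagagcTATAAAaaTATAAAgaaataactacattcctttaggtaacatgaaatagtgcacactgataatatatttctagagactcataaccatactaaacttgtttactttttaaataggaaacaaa
Vmn1r84: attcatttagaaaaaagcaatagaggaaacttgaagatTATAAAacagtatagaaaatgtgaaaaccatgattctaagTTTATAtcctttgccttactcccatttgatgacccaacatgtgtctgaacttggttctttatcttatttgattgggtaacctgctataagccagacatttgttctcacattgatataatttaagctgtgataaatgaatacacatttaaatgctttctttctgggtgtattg
Vmn1r82: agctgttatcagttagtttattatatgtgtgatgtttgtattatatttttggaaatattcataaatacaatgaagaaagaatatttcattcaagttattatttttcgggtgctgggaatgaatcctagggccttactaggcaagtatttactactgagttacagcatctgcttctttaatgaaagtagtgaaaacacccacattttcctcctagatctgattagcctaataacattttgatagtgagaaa
Vmn1r78: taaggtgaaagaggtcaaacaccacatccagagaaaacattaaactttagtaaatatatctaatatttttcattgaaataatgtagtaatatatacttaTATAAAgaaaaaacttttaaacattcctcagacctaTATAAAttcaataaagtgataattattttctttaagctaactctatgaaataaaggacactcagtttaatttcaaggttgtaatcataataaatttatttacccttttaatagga
Vmn1r83: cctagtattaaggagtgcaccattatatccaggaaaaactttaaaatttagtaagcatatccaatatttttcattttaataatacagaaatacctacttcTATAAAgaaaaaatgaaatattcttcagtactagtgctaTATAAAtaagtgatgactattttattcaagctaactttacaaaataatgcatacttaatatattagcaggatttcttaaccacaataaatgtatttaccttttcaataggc
Vmn1r74: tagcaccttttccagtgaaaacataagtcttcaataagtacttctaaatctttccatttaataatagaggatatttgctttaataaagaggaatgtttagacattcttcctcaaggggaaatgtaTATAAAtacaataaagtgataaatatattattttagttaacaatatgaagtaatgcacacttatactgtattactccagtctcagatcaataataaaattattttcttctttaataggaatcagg

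These stretches are rich in A and T, as those of the other receptors were. Upstream sequence was found in RefSeq for 65 of the 73 genes, and its median GC content was 34.4%, against 52.0% over 27025 genes with such a sequence. At 55 of the 65 genes the annotated start is an ATG, so the sequence lies directly before what may be the coding start and need not hold the promoter. The letters TATAAA, searched on both strands, stood in 31 of 65 receptors (47.7%) and in 13.0% of all genes. The AP-2 motif GCCNNNGGC, searched on both strands, stood in 0 of 65 receptors and in 13.6% of all genes. The EBF motif likewise stood in 0 of 65 and in 0.788% of all, and the homeodomain motif TAATTA in 5 of 65 (Vmn1r58, Vmn1r67, Vmn1r68, Vmn1r78 and Vmn1r85, 7.69%) and in 4.90% of all. These counts describe letters in short windows only. The windows of all genes were not matched to the receptors for GC content, on which such counts depend. Close copies among the receptors were each counted. Among the 6 sequences shown, Vmn1r73 was closest to Vmn1r74 (73.2% identical bases) and farthest from Vmn1r84 (58.8%). The median over all pairs of the 65 receptors was 60.4%. The differences between genotypes of Vmn1r73 and Vmn1r74 were 1.49 log2 units apart, and those of Vmn1r73 and Vmn1r84 0.40.

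Most of the 73 receptors had slightly higher signal in AP-2e null VNOs, and none passed the test over all genes. Of the 73, 60 had a higher AP-2e null mean, where 49.4% of all genes had one, and the median difference was 0.27, against 0.00 for all genes (-0.0005). In limma with Benjamini-Hochberg adjustment over 22180 genes, 0 receptors passed at an adjusted p under 0.05, a threshold that 0.225% of all genes passed (0.00902% higher and 0.216% lower). At an unadjusted p under 0.05, 14 receptors were higher (19.2%) and 0 lower, where 1.9% and 2.49% of all genes were. All 3 AP-2e null values lay above all 3 wild-type values for 18 receptors (24.7%), against 3.42% of all genes, and below them for 0, against 3.64%. The receptors share 6 arrays and are not independent of each other, so these shares carry no test.

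The shift rested largely on wild-type replicate 2. That array had the lowest value of all 6 for 57 of the 73 receptors, where it was lowest for 18.6% of all genes. The median over the 73 receptors was 6.02, 5.39 and 5.84 in wild-type replicates 1 to 3 and 6.31, 6.12 and 5.95 in AP-2e null replicates 1 to 3, so the genotypes overlapped. Without wild-type replicate 2 the median difference was 0.04, with 45 of the 73 receptors higher, where 10414 of 22180 genes were. In that fit 11 receptors had a higher mean at an unadjusted p under 0.05 in limma, where 535 of all genes had. Without wild-type replicate 1 this count was 22 receptors and 443 of all genes. It was 8 receptors and 351 genes without AP-2e null replicate 1, and 9 receptors and 333 genes without AP-2e null replicate 2. AP-2e null replicate 1 had the highest value for 31 receptors, against 18.5% of all genes. For the low values of wild-type replicate 2, fewer apical neurons and less receptor RNA per neuron cannot be told apart in a whole organ. Other causes of these low values were not tested.

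**Figure D1:**
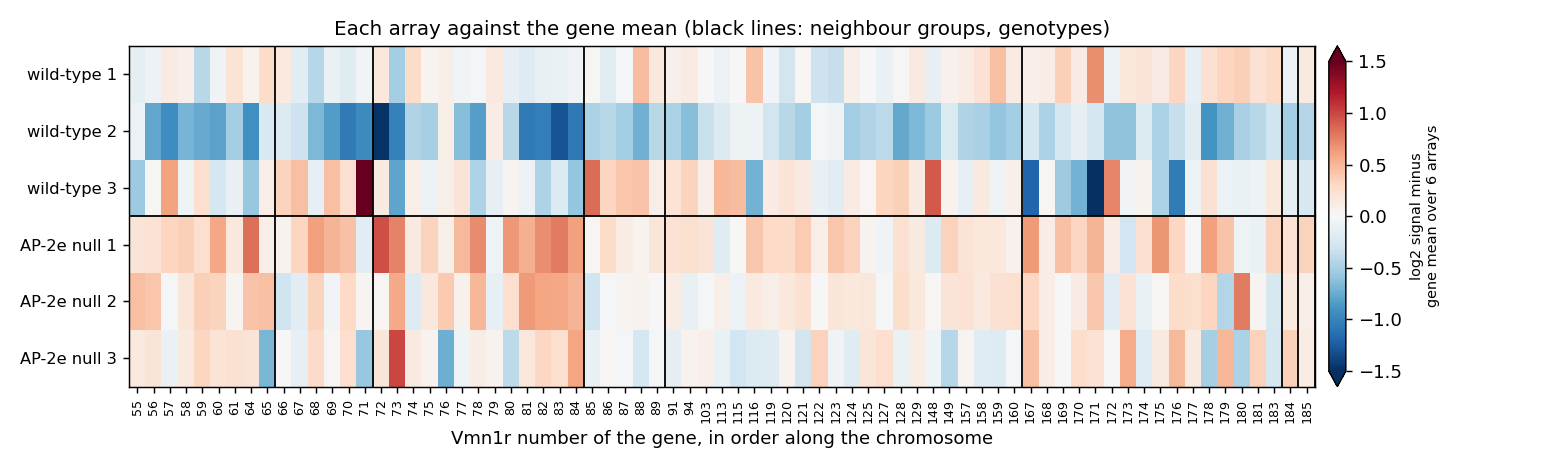
Signal of each of the 73 receptors (columns) on each array (rows), as log2 signal minus the gene's mean over the 6 arrays, with red above and blue below the mean and colours ending at 1.5 in either direction. Columns are in order of Vmn1r number. The axis label calls this the order along the chromosome, a match that was not checked. The row of wild-type replicate 2 is blue almost throughout, with the lowest value for 57 receptors, and wild-type replicate 3 departs from the mean in both directions.

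Markers of other cells on wild-type replicate 2 were as follows. All 6 skeletal muscle genes were highest on that array, with a list mean of 5.85 against 4.65 to 5.35 on the others (4.93 to 5.85 over the wild-type and 4.65 to 5.22 over the AP-2e null arrays). Of the 6 measured genes of olfactory epithelium neurons, 3 were highest there, and the list mean was 7.90 against 6.65 to 7.63 on the others (6.65 to 7.90 in wild-type, 6.89 to 7.63 in AP-2e null). The apical neuron list had its lowest mean there, 9.08, against 9.12 to 9.23 on the others, and 4 of its 7 genes were lowest on that array. Gnai2 was 10.52 there and 10.67 to 10.84 elsewhere. Meis2, by contrast, was 10.67 there, above 10.46 and 10.37 in wild-type replicates 1 and 3. Of the 7 genes, 0 were highest of all 6 arrays there. The basal neuron list instead had its highest mean there, 8.21, against 8.12 and 8.08 in wild-type replicates 1 and 3. Its means were 7.15 to 7.32 in AP-2e null samples, and 4 of its 10 genes were highest and 0 lowest on wild-type replicate 2. The signal chain list of VNO neurons was at 8.65 on that array. It was at 8.67 and 8.77 in wild-type replicates 1 and 3 and at 8.57 to 8.59 in AP-2e null samples. The immature neuron list had its lowest mean on wild-type replicate 2, 7.48, against 7.51 to 7.75 on the others. Lists of multiciliated cells, cartilage, endothelium, neutrophils, and supporting cells and glands had neither their highest nor their lowest mean there. The part of any of these cells in the receptor values was not tested.

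The spread between wild-type samples was larger than that between AP-2e null samples for most of the receptors. The SD of the wild-type group was the larger for 61 of 73 receptors (83.6%), against 55.8% of all genes. The highest and the lowest sample of a genotype were a median of 0.74 apart for wild-type and 0.34 for AP-2e null VNOs, where all genes had 0.23 and 0.20. For 5 receptors, Vmn1r69, Vmn1r122, Vmn1r167, Vmn1r173 and Vmn1r180, both means lay under 3.62, the mean lower quartile of the arrays' probe sets.

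Vmn1r73, a receptor of the V1rg subfamily, had the largest difference and the smallest p of the 73. Its signal was 6.89, 6.38 and 6.61 in wild-type replicates 1 to 3 and 8.14, 7.96 and 8.39 in AP-2e null replicates 1 to 3. The lowest AP-2e null sample lay more than 1 log2 unit above the highest wild-type sample. Group means of 6.62 ± 0.26 and 8.17 ± 0.22 (SD, n = 3 per genotype) gave a 2.91-fold higher AP-2e null signal, a log2 difference of 1.54 (SE 0.17). Its adjusted p in limma over all genes was 0.0589. It thus missed the threshold, which it passed in 5 of 15 other settings, with adjusted p between 0.0371 and 0.439 over all of them. Without any single array its difference stayed between 1.42 and 1.67 and missed the threshold each time. Without wild-type replicate 2 it was 1.42, so unlike the median of the receptors it did not rest on that array.

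Vmn1r84, also of the V1rg subfamily, stood at 8.86, 7.85 and 8.34 in wild-type and at 9.53, 9.42 and 9.51 in AP-2e null replicates 1 to 3. The AP-2e null samples lay close together and above every wild-type sample, with a difference of 1.14 (SE 0.25, 2.20-fold, adjusted p = 0.756 in limma). Vmn1r82 stood at 7.31, 6.38 and 6.95 in wild-type and at 8.11, 8.01 and 7.73 in AP-2e null samples. Its groups did not overlap either, and its difference was 1.07 (SE 0.25, 2.10-fold, adjusted p = 0.832). Vmn1r78 stood at 6.37, 5.58 and 5.94 in wild-type and at 7.11, 6.91 and 6.52 in AP-2e null samples, a difference of 0.88 (SE 0.25). The weaker signals of Vmn1r83 went from 4.24, 3.03 and 4.13 to 5.11, 4.90 and 4.57, with a difference of 1.06 (SE 0.35). Those of Vmn1r81 went from 3.83, 2.96 and 3.93 to 4.55, 4.65 and 4.19, with a difference of 0.89 (SE 0.29). In all of these genes wild-type replicate 2 was the lowest sample, and AP-2e null values were above all wild-type values. None of the 5 passed over all genes, and their differences without any single array stayed between 0.58 (Vmn1r81) and 1.39 (Vmn1r84).

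Genes of the same run differed from each other. Vmn1r72 to Vmn1r84 form a run of neighbours in RefSeq, with at most 250 kb between consecutive V1R genes, and all 13 measured genes of the run are among the 73. Of these, 11 carry a V1rg name, and Vmn1r77 and Vmn1r79 have no letter there. Of the 13, 11 were higher in AP-2e null VNOs, 6 at an unadjusted p under 0.05, and 7 did not overlap between genotypes, where 49.4%, 1.9% and 3.42% of all genes did so. The median difference was 0.78, but 0.25 without wild-type replicate 2 and 0.50 without AP-2e null replicate 1. Without these arrays in turn, 10 and 10 of the 13 were higher, where 10414 and 10758 of 22180 genes were. In limma 6 and 4 of the 13 were then higher at an unadjusted p under 0.05, where 535 and 351 of all genes were. Vmn1r74, with 6.12, 5.39 and 5.94 in wild-type and 5.98, 5.65 and 5.98 in AP-2e null samples, differed by 0.05 (SE 0.21). Vmn1r79, with 7.49, 7.46 and 7.22 against 7.29, 7.22 and 7.40, differed by -0.08 (SE 0.10). Both are named here after their values were seen. Vmn1r76 differed by -0.17 (SE 0.29), and its value was the same, 4.17, on 4 of 6 arrays. Of the 73 receptors, 12 had the same value on 2 or more arrays. The array's median over all 73 receptors was also taken off the median deviation of the 13 genes from their own means. This gave -0.09, -0.35 and -0.14 in wild-type and 0.36, 0.24 and 0.08 in AP-2e null replicates 1 to 3. The run was singled out after values were seen, as the largest differences lay in it. This order of the samples thus follows in part from that choice and is no separate result.

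**Figure D2:**
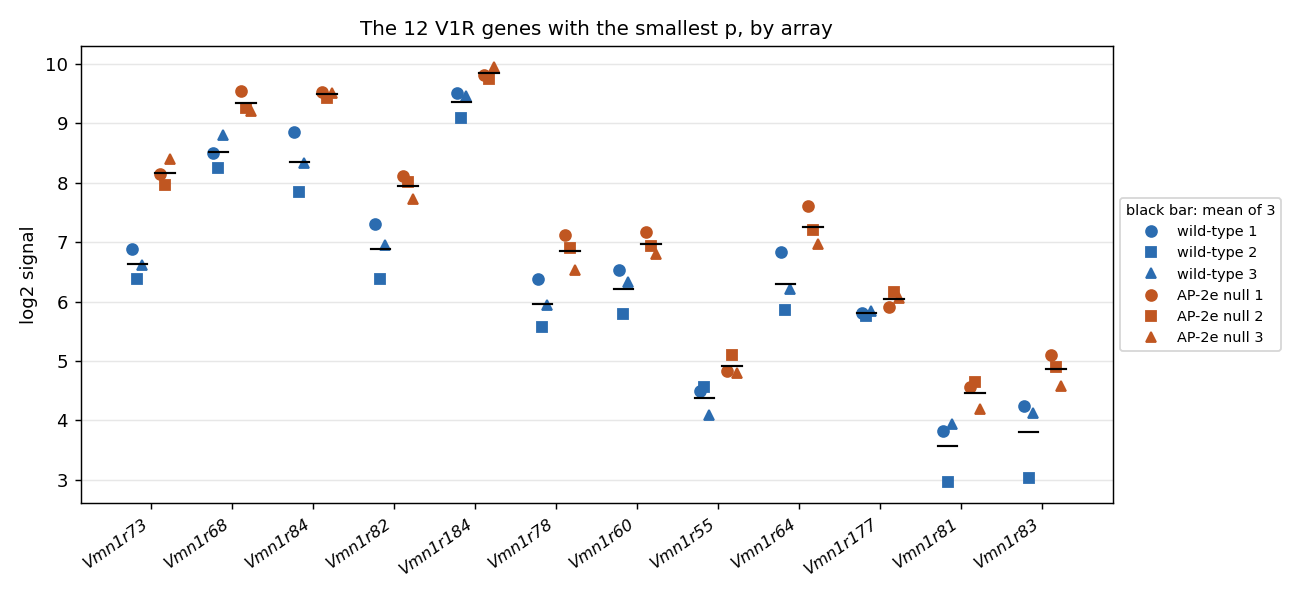
Log2 signal on each of the 6 arrays for the 12 receptors with the smallest p, blue for wild-type and orange for AP-2e null samples, with a marker shape per replicate number and a black bar for the mean of 3. No blue point lies above an orange point of the same gene, and Vmn1r73 has the widest gap between the genotypes.

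The 6 other receptors with the smallest p lay outside that run. Vmn1r68, which has no letter name, stood at 8.50, 8.25 and 8.80 in wild-type and at 9.54, 9.26 and 9.21 in AP-2e null samples. Its difference was 0.82 (SE 0.17, 1.76-fold, adjusted p = 0.603 in limma), and its groups did not overlap. Vmn1r184 stood at 9.52, 9.09 and 9.47 in wild-type and at 9.82, 9.75 and 9.95 in AP-2e null samples, a difference of 0.48 (SE 0.13). Vmn1r177, a V1rd gene, had the closest samples of the 12, with 5.80, 5.76 and 5.84 in wild-type and 5.91, 6.16 and 6.05 in AP-2e null samples, and differed by 0.24 (SE 0.08). The remaining 3 lie together in the run Vmn1r55 to Vmn1r65. Vmn1r64, a V1rd gene, stood at 6.83, 5.86 and 6.21 against 7.61, 7.21 and 6.97, a difference of 0.96 (SE 0.29). Vmn1r60 stood at 6.54, 5.78 and 6.33 against 7.17, 6.93 and 6.80, a difference of 0.75 (SE 0.22). Vmn1r55, a V1rd gene, stood at 4.50, 4.56 and 4.10 against 4.84, 5.10 and 4.79, a difference of 0.53 (SE 0.15). In these 6 genes every AP-2e null value was above every wild-type value, and none passed, with an adjusted p of 0.873 for the last 5.

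**Figure D3:**
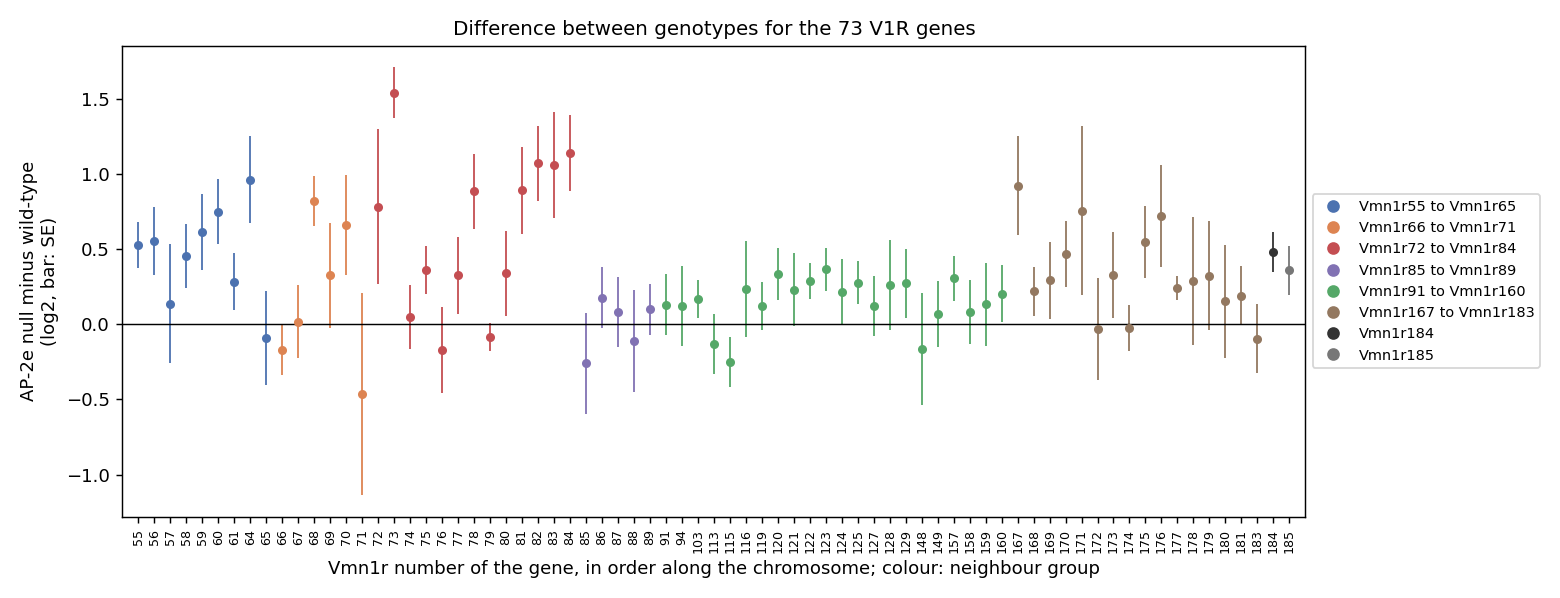
Difference between genotypes (AP-2e null minus wild-type, log2) with its SE for the 73 receptors, coloured by neighbour group. Receptors are in order of Vmn1r number. The axis label calls this the order along the chromosome, a match that was not checked. Most points lie above 0, the largest at 1.54 for Vmn1r73, while Vmn1r91 to Vmn1r160 lie between -0.25 and 0.37.

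The receptors with the largest negative differences were not lower beyond the spread of their samples. Vmn1r71, a V1re gene, stood at 7.29, 6.36 and 9.02 in wild-type and at 7.16, 7.37 and 6.76 in AP-2e null samples. Its difference of -0.46 (SE 0.67) came with the high value of wild-type replicate 3 and was 0.27 without that array. Vmn1r85, a V1rj receptor of a subfamily known for responses to sulfated estrogens, stood at 8.06, 7.56 and 8.88 against 8.06, 7.74 and 7.92. Its difference was -0.26 (SE 0.34), and 0.10 without wild-type replicate 3. Vmn1r89, which has both a V1re and a V1rj name in RefSeq and is given here after its value was seen, stood at 8.92, 8.35 and 8.87 against 8.95, 8.76 and 8.73, a difference of 0.10 (SE 0.17). Vmn1r115 differed by -0.25 (SE 0.17), with 4.36, 4.30 and 4.83 against 4.37, 4.28 and 4.08, and Vmn1r66, a V1re gene, by -0.17 (SE 0.17). Wild-type and AP-2e null values overlapped in all of these genes, and 0 of the 73 had an unadjusted p under 0.05 in limma with a lower mean.

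Wild-type replicate 3 was the highest array for some receptors and the lowest for others. It was lowest for 9 (12.3%) and highest for 14 (19.2%) of the 73, both smaller shares than over all genes, where it was lowest for 19.7% and highest for 23.0%. Of the 9, 6 lay in the run Vmn1r167 to Vmn1r183, which has 16 measured genes. Vmn1r171, a V1rd gene, stood at 6.84, 5.88 and 4.57 in wild-type and at 6.65, 6.55 and 6.36 in AP-2e null samples, so its difference of 0.76 (SE 0.56) was 0.16 without wild-type replicate 3. Vmn1r176, named here after its value was seen, showed a like order with 7.03, 6.36 and 5.66 against 7.02, 6.99 and 7.20. Vmn1r172, next to Vmn1r171 in the numbering and also named after its value was seen, was instead highest on that array, with 4.43, 3.92 and 5.25 against 4.63, 4.36 and 4.52. Vmn1r148 was another with its highest value there, 8.70, against 7.66 and 7.23 in the other wild-type samples. The widest spread after Vmn1r71 and Vmn1r171 was that of Vmn1r72, Vmn1r178 and Vmn1r57, where wild-type replicate 2 was lowest at 2.61, 5.24 and 5.94. The differences of these 3 genes were 0.78 (SE 0.52), 0.29 (SE 0.42) and 0.14 (SE 0.40). Over all genes, wild-type replicate 3 also had the lowest mean correlation with the other arrays, 0.981, against 0.985 to 0.988, where genes are not independent replicates.

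**Figure D4:**
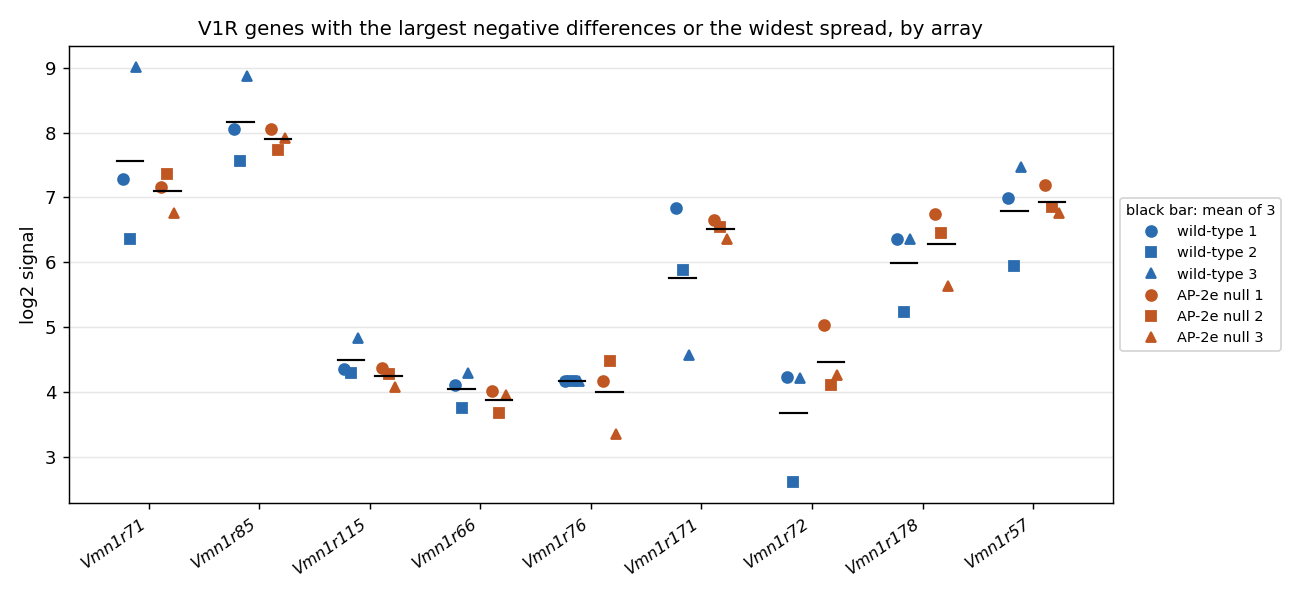
Log2 signal on each of the 6 arrays for the receptors with the largest negative differences or the widest spread within genotypes, with the same colours, shapes and bars as for the smallest p. The genotypes overlap in every gene, and wild-type replicate 3 (blue triangle) is far above the other samples for Vmn1r71 (9.02) and far below them for Vmn1r171 (4.57).

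By position, the runs of neighbours differed in their medians, and none of these differences was tested. The runs were set from the distances in RefSeq after values had been seen. The 9 genes Vmn1r55 to Vmn1r65 had a median difference of 0.53, with 8 higher, and 0.31 without wild-type replicate 2. The 6 genes Vmn1r66 to Vmn1r71 had 0.17, with 4 higher, and moved to -0.07 when wild-type replicate 2 was left out and to 0.45 when wild-type replicate 3 was. Leaving out AP-2e null replicate 1 gave these genes 0.007, with 3 higher. The 5 genes Vmn1r85 to Vmn1r89 had 0.08, with 3 higher, and moved to -0.15 and 0.18 without the same 2 wild-type arrays and to 0.03 without AP-2e null replicate 1. The medians of both small runs thus depended on single arrays of either genotype. The 22 genes Vmn1r91 to Vmn1r160 had 0.19, with 19 higher, and 0.003 and 0.30 when wild-type replicate 2 or wild-type replicate 3 was left out. Leaving out AP-2e null replicate 1 gave it 0.09. The 16 genes Vmn1r167 to Vmn1r183 had 0.29, with 13 higher, and 0.07 and 0.48 when wild-type replicate 2 or wild-type replicate 1 was left out. Of the last 2 runs, 3 genes had an unadjusted p under 0.05, all with higher means. By older name, the 17 V1rd genes had a median difference of 0.29 with 12 higher, and 0.04 and 0.48 without wild-type replicates 2 and 1. The 6 V1re genes had 0.06 with 4 higher, which ranged from -0.11 without wild-type replicate 2 and -0.05 without AP-2e null replicate 1 to 0.26 without wild-type replicate 3. The 11 V1rg genes had 0.88 with 10 higher, and 0.58 without wild-type replicate 2.

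**Figure D5:**
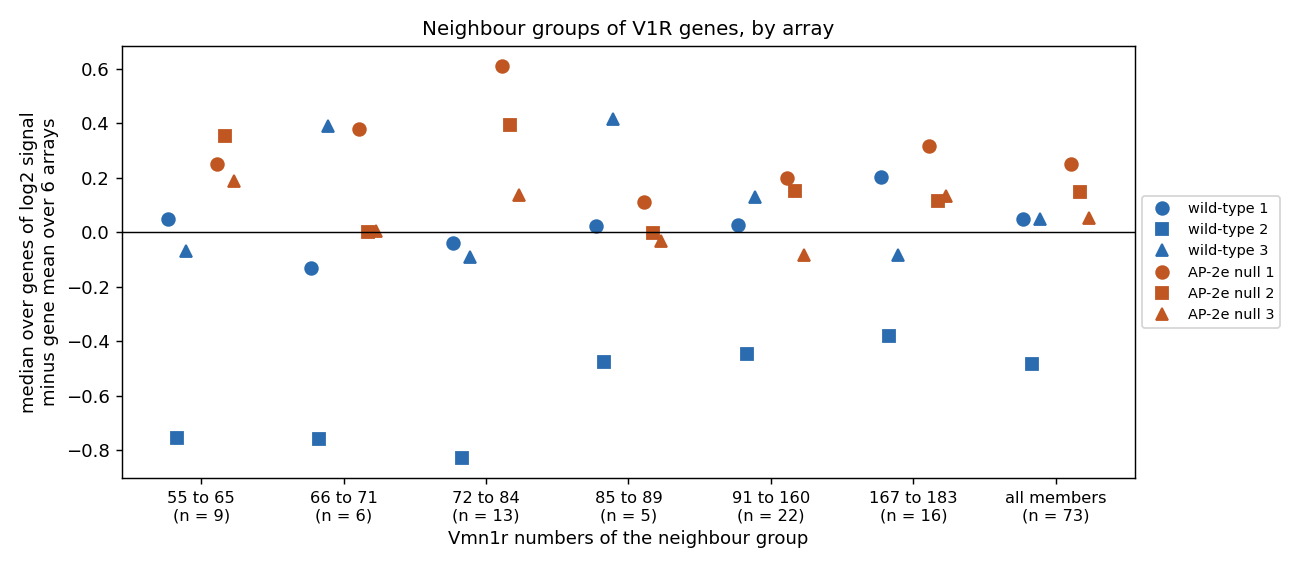
Median over the genes of each neighbour group of the log2 signal minus the gene's mean over 6 arrays, for each array, with the same colours and shapes as in the plots of single genes. Wild-type replicate 2 (blue square) is the lowest point of every group, between -0.83 and -0.38, and AP-2e null replicate 1 (orange circle) is at 0.61 for Vmn1r72 to Vmn1r84.

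Many receptors of the run Vmn1r91 to Vmn1r160 are close copies, which limits what single values say. In the upstream sequence, 62 of 2080 pairs of receptors shared at least 90% of bases, and these pairs involved 27 genes. Vmn1r123 and Vmn1r160 were identical over the 250 bases, and Vmn1r122 and Vmn1r159 shared 99.6%. In the 62 pairs the differences between genotypes were a median of 0.085 log2 units apart, against 0.31 over all pairs. Over all 210 pairs within Vmn1r91 to Vmn1r160, close or not, they were 0.12 apart, with a median identity of 85.2%. Pairs share genes, and no test applies. Within the run Vmn1r72 to Vmn1r84 no pair was that close, and identity ran from 57.6% to 79.6% over its 78 pairs. Their median identity was 65.4%, against 60.4% over all 2080 pairs, and their differences were a median of 0.55 apart. The closest to Vmn1r73 was Vmn1r80 at 76.8%, whose difference was 0.34 (SE 0.28). Probe sequences are not used here, so how far probes are shared between receptors was not tested.

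Close copies also had probe sets in common. RefSeq holds 103 genes numbered Vmn1r55 to Vmn1r185, and 42 further probe sets name several genes at once, between 2 and 20 each, with at least 1 from this range. They cover 54 genes of the range, of which 30 have no probe set of their own and 24 are among the 73. All 42 had a higher AP-2e null mean, where 49.4% of the 22180 genes had one. Differences of the 42 lay between 0.02 and 0.71, with a median of 0.20. Some repeat each other's values, which leaves 28 distinct sets of values. The 42 share genes and arrays and are not independent of each other. With every probe set of the table tested by itself in limma, 0 of the 42 passed, where 0.133% of 41345 probe sets did, and 0 had an unadjusted p under 0.05, where 4.61% did. Wild-type replicate 2 was the lowest array for all 42, with a median of 7.05 against 7.65 and 7.96 in the other wild-type and 7.76 to 7.93 in the AP-2e null samples.

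V1R genes with other numbers also had mostly higher means in AP-2e null VNOs. Of 54 measured genes Vmn1r1 to Vmn1r54, 42 were higher in AP-2e null VNOs, with a median difference of 0.14. Of the 54, 7 had an unadjusted p under 0.05 in limma with a higher mean, where 1.9% of all genes had. That count became 16 when wild-type replicate 1 was left out, where 443 of 22180 genes had such a p and a higher mean. It became 3 when wild-type replicate 2 was left out, where 535 of all genes had. Of 49 genes Vmn1r186 and above, 40 were higher, with a median of 0.21, and 6 had such a p. Without the same arrays 12 and 2 of the 49 had one. Without AP-2e null replicates 1 and 2 the counts were 0 and 1, where 351 and 333 of all genes had such a p and a higher mean. Leaving out wild-type replicate 1 gave the lower-numbered group a median of 0.26, and leaving out AP-2e null replicate 1 or 3 gave the higher-numbered group 0.13 or 0.33. Without wild-type replicate 2 the medians were 0.04 and -0.02, against 0.04 for the 73 receptors. None of the 3 groups had a gene past the threshold over all genes. Differences ran from -0.80 to 0.88 in Vmn1r1 to Vmn1r54, from -2.32 to 0.78 in Vmn1r186 and above, and from -0.46 to 1.54 in the 73. The -2.32 belongs to Vmn1r188, which stood at 3.68, 3.23 and 8.36 in wild-type replicates 1 to 3 against 2.12, 3.29 and 2.88 in AP-2e null, so that only wild-type replicate 3 was high. The difference between the groups was not tested.

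Other genes of the apical neurons did not pass either. Of the 7 listed, 0 passed over all genes in limma, where 0.225% of all genes did. Of the 7, 3 had an unadjusted p under 0.05 in limma, where 1.9% of all genes were higher and 2.49% lower. Gng2, a G protein gamma subunit, differed by 0.36 and the transcription factor gene Meis2 by 0.26 on the log2 scale. Kirrel2, an adhesion gene of axon sorting, differed by -0.35. Gnai2 differed by 0.11, Ncam2 by 0.08, the phosphodiesterase Pde4a by -0.03 and the guidance receptor Nrp2 by -0.06. Of the 8 genes of the signal chain shared by VNO neurons, 0 passed and 1 had an unadjusted p under 0.05, the chloride channel Ano2 at -0.40. Trpc2 differed by -0.04, Plcb2 by 0.004, Itpr3 by 0.09, Ano1 by 0.06, Gnb1 by -0.10, Omp by -0.41 and Cnga4 by -0.11. Of the 7 genes of receptor export and protein folding, 0 passed, and Calr4, a calreticulin-like chaperone with the smallest p, differed by -1.10. In that list Rtp1, a receptor-transporting protein named after its value was seen, differed by 0.44 the other way (adjusted p = 0.370 in limma), with all AP-2e null values above the wild-type values. Among the 10 basal neuron genes, which include Calr4, 1 passed, where 0.216% of all genes passed with a lower mean. It was H2-M1, a nonclassical MHC gene of basal neurons, which fell by 2.82. Of the 10, 9 had a lower mean at an unadjusted p under 0.05 in limma, where 2.49% of all genes had. In the lists of other cells 0 genes passed, and those with the smallest p were Tubb3 at -0.25, Foxj1 at -0.40, Matn1 at 1.15, Myh4 at -1.17, Kdr at 0.24, Mpo at 0.62 and Lcn4 at -0.23. The value of Matn1 came with AP-2e null replicate 2 alone, at 7.72 against 3.99 and 4.27 in the other AP-2e null samples and 4.17 as the wild-type mean.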

How the data were processed

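The authors deposited log2 signals for each probe set on each array, for which the submitters' processing notes name RMA and the Transcriptome Analysis Console. Software versions and a genome build are not given there. Scanner files are not analysed here. Titles gave genotype and replicate number and describe biological replicates, so p-values refer to the spread between 3 samples per genotype. Of 41345 probe sets, 23521 name 1 gene, 1814 several and 16010 none in the platform annotation. The highest-mean probe set was kept per gene, with no filter on dim genes. All 73 receptors matched the RefSeq gene table (GRCm38.p6), used for names, older V1r names and neighbours.

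The genotypes were set against each other by a 2-sided test without covariates (limma 3.58.1, functions lmFit and eBayes, under R 4.3.3), with Benjamini-Hochberg adjustment over 22180 genes, at a threshold of 0.05. The script was tested on simulated data. Upstream sequences were aligned with Biopython 1.88 (global, identity over 250 bases), in place of a planned comparison of proteins, whose sequences were not used here. Python 3.11.15 and matplotlib 3.10.9 made the plots. The number of arrays limits the precision.

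The receptors and gene lists were chosen with earlier results of these data known. Receptors were named by rule: the 12 with the smallest p, the 5 largest positive and 5 largest negative differences and the 5 widest pooled SDs within genotypes. All apical and signal chain genes and 1 gene of each other list, that with the smallest p, were named too. The alternatives were other variance moderation, other handling of probe sets, array weights, leaving out single arrays, the replicate number as a block, removal of the dimmest 30% of genes, and 3 further scalings (cyclic loess, repeated quantile normalization, median centring). The runs of neighbours and their alternatives were added after seeing the data, as was the motif TATAAA.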

Additional observations from a re-analysis of the deposited data

How the results depend on the processing

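Under 15 alternatives, Vmn1r73 alone of the 21 named receptors passed the threshold, so the count of receptors past it went from 0 to 1 with trend and robust moderation (adjusted p = 0.0371), without the dimmest 30% of genes (0.0408), with median centring (0.0393), with repeated quantile normalization (0.0378) and with cyclic loess (0.0380), and stayed at 0 in the other 10. The number of receptors with an unadjusted p under 0.05 in limma lay between 8 and 22 with single arrays left out. Counted for higher means alone it also lay between 8 and 22, against 333 to 558 of 22180 genes. The median difference of Vmn1r72 to Vmn1r84 was 0.36 without the dimmest 30% of genes, where 9 of its 13 genes were left, and 0.25 to 1.02 with single arrays left out. Of the 21 named receptors, 16 kept their direction throughout. The others changed it with single arrays left out, where Vmn1r57 ranged from -0.29 to 0.47, Vmn1r71 from -1.06 to 0.27, Vmn1r76 from -0.41 to 0.15, Vmn1r85 from -0.56 to 0.10 and Vmn1r178 from -0.0862 to 0.61, and the cause was not tested. With the replicate block, 0 receptors passed, 15 had an unadjusted p under 0.05 and Vmn1r73 had an adjusted p of 0.183. Samples of the same number shared deviations with r = 0.040, 0.110 and 0.019, not all over 0.1, and only AP-2e null replicate 2 correlated best with its own number, so the numbers were not taken as pairs. The median of all genes moved by less than 0.1 under each scaling.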
